A study of Populus alba x Populus glandulosa with 18 samples.

Results

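The 4 basic chitinase genes described here were followed over 3 stem domains and 2 genotypes of poplar, and are 4 of the 11 models with that description among 42950 gene models. Chromosome 9 holds Potri.009G142300, Potri.009G142100 and Potri.009G141800, and chromosome 4 holds Potri.004G182000. They were chosen by their fold change in the primary stem, where levels were lower in PagDET2-OE plants than in 84K. The genotype values of the primary stem are therefore a description of the choice and carry no test, whereas the bark and xylem libraries played no part in it.

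Basic chitinases of this type, named CHI-B, HCHIB or PR-3 in Arabidopsis, belong to glycoside hydrolase family GH19. They cut chitin, the polymer of N-acetylglucosamine that stiffens fungal cell walls and that plants do not make. In Arabidopsis the single gene of this name is induced by ethylene and jasmonate and serves as a marker of that branch of defence, and related chitinases are also present in healthy organs. Poplar carries several copies, so a copy-by-copy account is possible.

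The plants were 84K, a hybrid of Populus alba and Populus glandulosa, 2 months old and untreated in both genotypes. The PagDET2-OE plants expressed DET2, a steroid reductase of brassinosteroid synthesis, from the 35S promoter, which is active in most cells, and the labels do not tell which transgenic line gave a library. The 18 RNA-seq libraries form 6 groups of 3: primary stem (PS, shoot apical meristem in the labels, collected by the study's methods with the youngest elongating internodes), bark (BA, labelled cambium) and xylem (XY), each from 84K and PagDET2-OE. The study's text gives as many trees as there are libraries in a group, but no label ties a library to a tree, so p-values measure the spread between these libraries.

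Library totals ranged from 7983668 to 12052409 counts. DET2 (Potri.016G110600) had 46 to 81 counts in the 9 84K libraries and 12777 to 25649 in the 9 PagDET2-OE libraries, in accordance with the labels. In 84K, all 30 tested secondary wall genes were higher in XY than in BA and 11 of 12 phloem genes were lower. The summed level of 16 epidermal gene models was 321 to 332 CPM (counts scaled to a common library total) in 84K PS and 14.1 to 17.5 in 84K BA. Meristem genes set PS apart only in part. KNAT1 had 21863 counts over the 6 PS libraries and 17122 over the 6 BA libraries, and STM had 6474 and 8078. The stem cell gene WUS had 4 in PS against 399 in XY. CUC2 had 67 counts in PS, 2 in BA and 0 in XY, and LFY had 23, 3 and 0. The summed level of the 10 meristem models in 84K was 405 to 454 CPM in PS, 381 to 398 in BA and 169 to 183 in XY. Levels are given as CPM after TMM scaling over the 18 libraries, and as FPKM, which corrects for gene length, where genes are compared with each other. A count of 0 allows up to 3 counts at the 95% level, which is 0.232 to 0.478 CPM per library. Such limits cover counting error only.

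The 3 copies on chromosome 9 belong to an array of 6 basic chitinase models. In the coordinates of the deposited table, made on the P. trichocarpa genome, Potri.009G141800 spans 11283289 to 11284670, Potri.009G142100 spans 11300009 to 11301317 and Potri.009G142300 spans 11309429 to 11310967. Potri.009G142000 lies between the first and second of them, from 11289693 to 11291106, separated by 5022 bp from Potri.009G141800 and by 8902 bp from Potri.009G142100. Potri.004G182000 spans 19854568 to 19855939 of chromosome 4, beside Potri.004G182100. The flanks of the array and of the chromosome 4 pair held genes with the same descriptions in the same order: SAUR genes, an alanyl-tRNA synthetase, the expansin-like EXLA2, a putative lysine decarboxylase and NAC036, followed by the chitinases. The remaining 3 models, Potri.T175200, Potri.T175300 and Potri.T175401, lie on an unplaced scaffold. The table gives whole gene spans and no strand, so exons and untranslated regions are not annotated here.

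The copies may share reads. The libraries come from a hybrid of other Populus species and were aligned to P. trichocarpa, so reads of near-identical copies could be divided among them in a way the counts do not show. The unnamed model Potri.009G141950 covers 11288938 to 11301720 and so overlaps both Potri.009G142000 and Potri.009G142100. It had 0 counts in all 18 libraries.

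In the primary stem of 84K, Potri.009G142300 was the most abundant of the 4 genes, and all 4 were lower in every PagDET2-OE library than in every 84K library. Potri.009G142300 measured 32.3, 30.8 and 25.8 CPM in 84K PS and 13.9, 14.0 and 16.3 CPM in PagDET2-OE PS. Means were 29.6 ± 3.37 and 14.7 ± 1.34 CPM (SD, n = 3), a log2 fold change of -1.01 (SE 0.11). The lowest 84K library stood well above the highest PagDET2-OE library, and this gene changed least of the 4.

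Potri.009G142100 measured 11.8, 12.0 and 11.4 CPM in 84K PS and 3.05, 3.58 and 4.09 CPM in PagDET2-OE PS. The means of 11.7 ± 0.286 and 3.57 ± 0.521 CPM (SD, n = 3) gave a log2 fold change of -1.71 (SE 0.15). This was the lowest fold change of the 4, and its 84K libraries were the most alike of any copy.

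Potri.009G141800 measured 12.2, 10.6 and 9.76 CPM in 84K PS and 4.87, 4.43 and 5.90 CPM in PagDET2-OE PS. The means were 10.9 ± 1.26 and 5.07 ± 0.757 CPM (SD, n = 3), with a log2 fold change of -1.10 (SE 0.15). In 84K this gene and Potri.009G142100 could not be ranked, because their FPKM ranges of 10.8 to 13.6 and 13.3 to 14.0 overlapped.

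Potri.004G182000 was the least abundant, at 3.83, 5.07 and 4.55 CPM in 84K PS and 1.52, 1.62 and 1.73 CPM in PagDET2-OE PS. These values rest on 41 to 57 counts per 84K library and on 15 to 19 per PagDET2-OE library. The means were 4.48 ± 0.623 and 1.62 ± 0.102 CPM (SD, n = 3), with a log2 fold change of -1.46 (SE 0.22). On log2(FPKM + 1) values, which compress low levels, the same difference was -1.09.

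**Figure D1:**
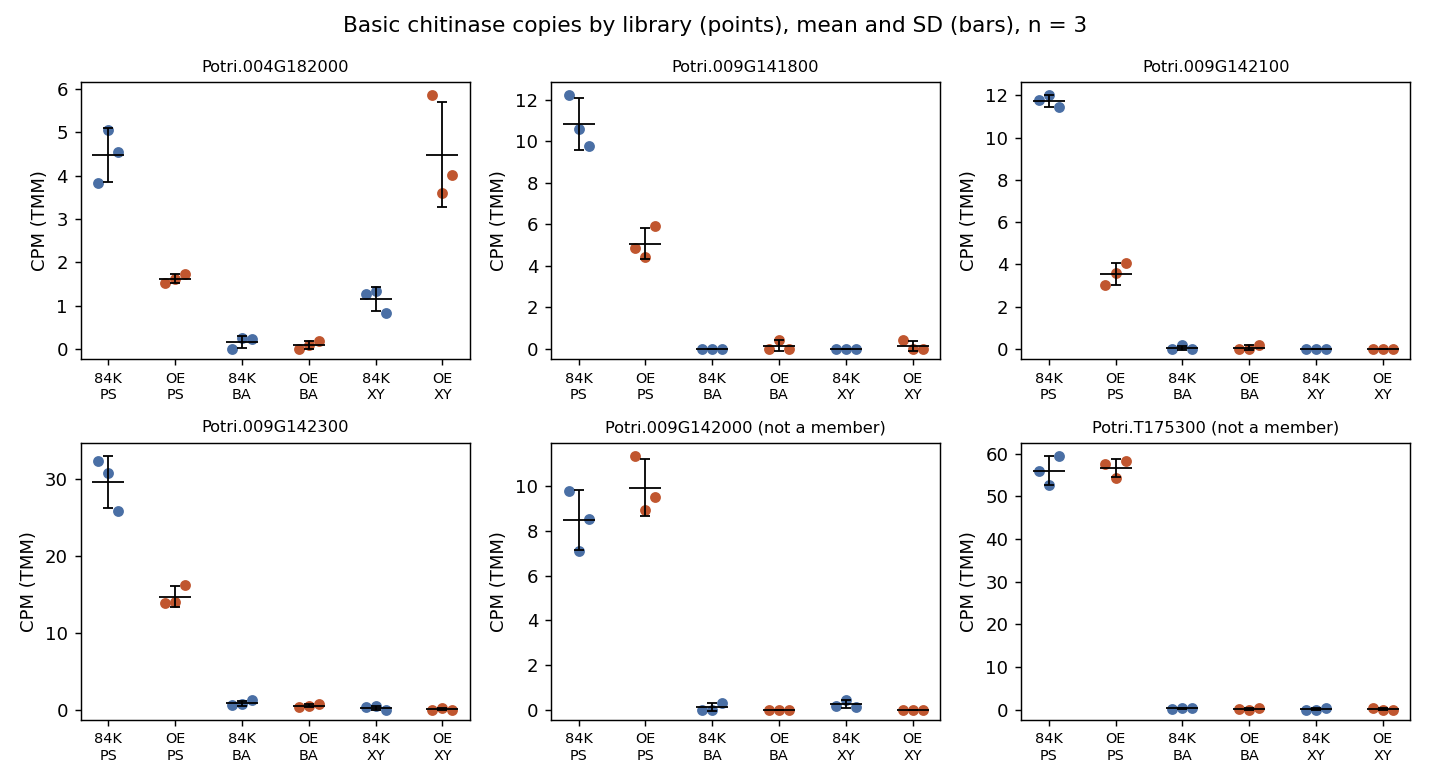
Level of 6 basic chitinase models in CPM (y axis, a separate linear scale per panel) in 84K and PagDET2-OE libraries of PS, BA and XY (x axis). Points are libraries and bars the mean and SD of 3. The 4 members are lower in PagDET2-OE PS than in 84K PS, Potri.009G142000 and Potri.T175300 overlap between the genotypes there, and of the 6 models Potri.004G182000 has a visible level in XY, where 84K measured 1.15 ± 0.270 and PagDET2-OE 4.49 ± 1.21 CPM.

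Of all 23971 genes tested in PS, 0.534% were called lower by at least 2-fold, a share that the choice of these 4 genes makes unreadable for them. The values nearest the 2-fold limit were -1.01 for Potri.009G142300 and -1.10 for Potri.009G141800 on the inside. The next copies outside were Potri.T175300 at 0.02 and Potri.009G142000 at 0.22, so no copy with a measurable level lay between. Bulk RNA cannot tell fewer cells of a type that makes a transcript from less transcript per cell.

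The other 7 basic chitinase models were not uniform. Potri.T175300 was the most abundant copy of all and measured 55.9, 52.6 and 59.5 CPM in 84K PS against 57.4, 54.2 and 58.3 CPM in PagDET2-OE PS, so the genotypes overlapped (log2 fold change 0.02, SE 0.07). Potri.009G142000 measured 9.80, 7.11 and 8.55 CPM in 84K PS against 11.4, 8.94 and 9.54 CPM in PagDET2-OE PS, which also overlapped (0.22, SE 0.15). This copy sits inside the array, flanked on both sides by copies that were lower. The next copies held little or nothing: Potri.T175200 had 28 counts and Potri.009G141700 had 2 counts over 18 libraries, and Potri.004G182100, Potri.009G142200 and Potri.T175401 had 0.

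**Figure D2:**
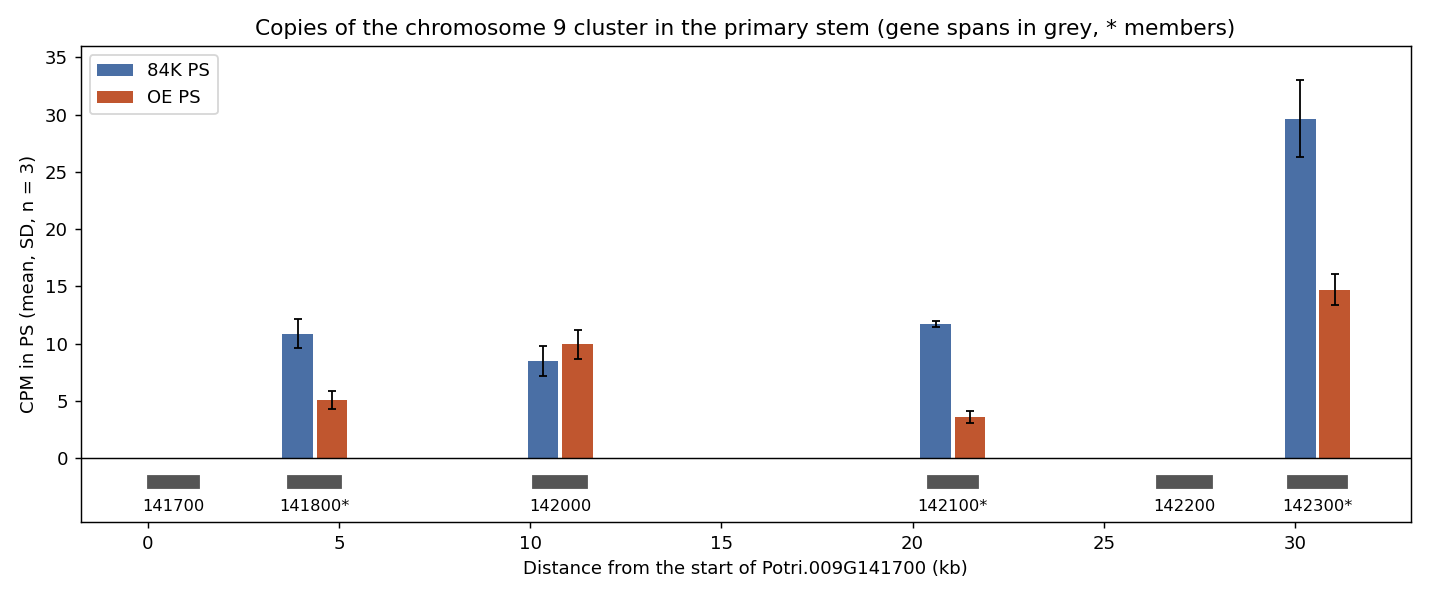
Mean CPM in PS of the 6 models of the chromosome 9 array (y axis, bars from 0, error bars SD, n = 3) against distance in kb from the start of Potri.009G141700 (x axis), with gene spans in grey and members starred. Potri.009G142000 has means of 8.49 CPM in 84K and 9.95 CPM in PagDET2-OE with overlapping libraries, while the starred copies on both sides of it are lower in PagDET2-OE.

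Per length, the summed basic chitinase level in PS was 147 ± 4.47 FPKM in 84K and 114 ± 4.83 FPKM in PagDET2-OE (SD, n = 3). The 4 members made up 40.0% ± 3.09 of it in 84K and 22.1% ± 1.62 in PagDET2-OE. The share of Potri.T175300 was 55.4% ± 2.99 in 84K and 71.2% ± 0.862 in PagDET2-OE. In 84K Potri.T175300 had the highest mean (81.6 FPKM), followed by Potri.009G142300 (28.4), then by Potri.009G142100 (13.7) and Potri.009G141800 (12.1), which overlapped, and by Potri.009G142000 (6.44) and Potri.004G182000 (4.75). In PagDET2-OE, Potri.009G142000 reached 7.46 FPKM, ahead of Potri.009G141800 at 5.56, Potri.009G142100 at 4.11 and Potri.004G182000 at 1.70.

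**Figure D3:**
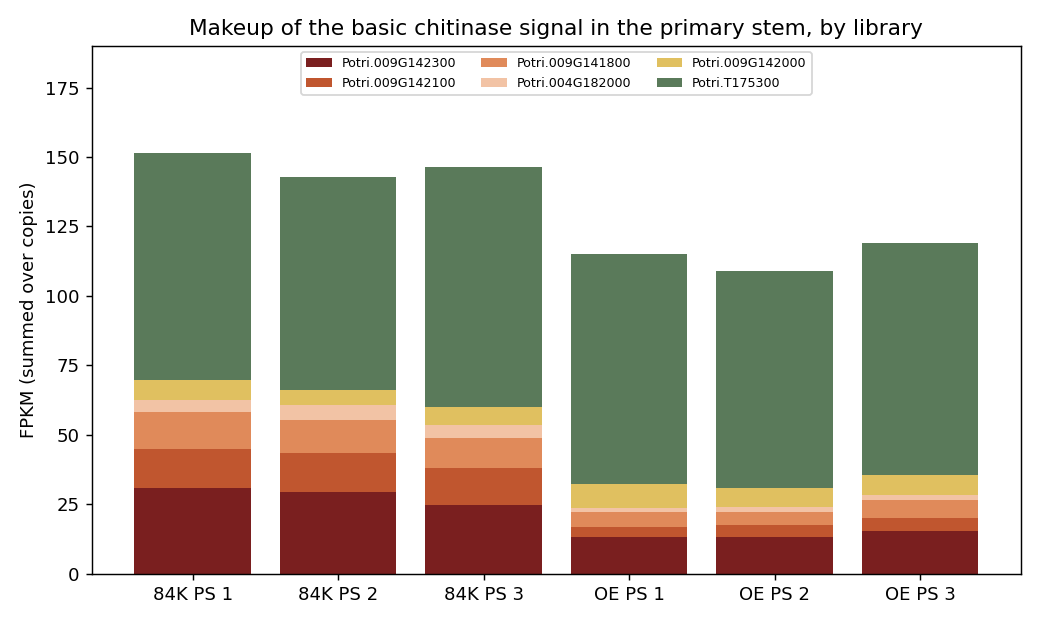
Summed FPKM of the 6 basic chitinase models with a measurable level (y axis, stacked bars from 0) in each PS library (x axis). The top segment, Potri.T175300, averages 81.6 FPKM in both genotypes, and the 4 members at the bottom take 40.0% of the family sum in 84K and 22.1% in PagDET2-OE.

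Markers of other cell types also differed between the genotypes in PS, where 8.08% of all genes tested were called higher and 6.90% lower. Sums in this and later marker paragraphs cover every model of a list, tested or not. Of 9 tested phloem models 3 were lower. The sum of all 16 phloem models was 227 to 240 CPM in 84K and 172 to 184 CPM in PagDET2-OE. APL, a regulator of phloem identity, and SUC2, a sucrose carrier, were both detected, and 4 of 9 models of the phloem lectin PP2-A10 had 0 counts. Of 9 tested epidermal models 4 were higher and 2 lower, with sums of 321 to 332 and 361 to 391 CPM. Nuclear photosystem genes were higher in 22 of 44 cases and lower in 1, with sums of 6479 to 7188 and 7336 to 8428 CPM. The 3 tested meristem models were not called (sums of all 10 models 405 to 454 and 418 to 457 CPM). Of 28 tested secondary wall genes 1 was higher and 2 lower (sums of all 34 models 388 to 419 and 405 to 426 CPM). DESeq2 called 2 phloem, 4 epidermal and 2 secondary wall genes in place of 3, 6 and 3. The part of these shifts in the chitinase levels was not tested.

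Outside the primary stem the chromosome 9 copies were nearly absent. PS held 98.5% of all counts of Potri.009G141800, 99.2% of those of Potri.009G142100 and 96.3% of those of Potri.009G142300. Potri.009G141800 had 0 counts in every 84K BA and XY library, so its 84K PS level was at least 124-fold higher than in BA and at least 77.3-fold higher than in XY, with 3 counts over the group as the floor. Potri.009G142100 had 0 counts in all 6 XY libraries, and its PS level was at least 83.6-fold higher in 84K and at least 27.6-fold higher in PagDET2-OE. Both copies that were not lower shared this distribution, with 98.5% of the counts of Potri.009G142000 and 99.4% of those of Potri.T175300 in PS.

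In bark none of the 4 genes had enough counts to be tested between genotypes. Potri.009G142300 was the best covered, with 6, 9 and 16 counts in 84K and 4, 5 and 9 in PagDET2-OE, which overlapped. Potri.004G182000 had 0, 3 and 3 counts in 84K and 0, 1 and 2 in PagDET2-OE. Of Potri.009G141800, 5 counts were found in a single PagDET2-OE library, and of Potri.009G142100, 2 counts in 1 library of each genotype. After scaling, the ratio of 84K to PagDET2-OE counts was 1.65 for Potri.009G142300 (95% counting interval 0.896 to 3.14) and 1.92 for Potri.004G182000 (0.410 to 11.9), and differences within these intervals were not detectable at this depth. The background in BA, over 23651 genes, was 6.19% called higher in PagDET2-OE and 5.34% called lower.

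Markers of wood formation were lower in PagDET2-OE bark. Of 21 tested secondary wall genes 14 were lower and none was higher, beside 5.34% and 6.19% of all genes. The median log2 fold change was -0.59, with list sums of 1028 to 1123 CPM in 84K and 731 to 788 CPM in PagDET2-OE. Of 12 tested phloem models 2 were higher and 1 lower, with sums of 1612 to 1652 and 1543 to 1635 CPM. The part of these shifts in the values of single genes in BA was not tested.

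In xylem Potri.004G182000 was higher in PagDET2-OE, opposite to its direction in PS. It had 8, 9 and 7 counts in the 84K libraries and 40, 27 and 35 in the PagDET2-OE libraries, or 1.28, 1.33 and 0.839 CPM against 5.86, 3.59 and 4.02 CPM. The groups did not overlap, and the lowest PagDET2-OE library was above every 84K library. The means of 1.15 ± 0.270 and 4.49 ± 1.21 CPM (SD, n = 3) gave a log2 fold change of 1.94 (SE 0.35, adjusted p = 0.000716 by edgeR's quasi-likelihood test with Benjamini-Hochberg adjustment over 21273 genes). All 3 PagDET2-OE libraries showed the direction. The gene passed the count filter in XY only through the PagDET2-OE libraries, the group where it is high. The p-value is therefore given as a description.

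This was the single member with enough counts for a test in XY, where 19.4% of all genes tested were called in either direction (2136 higher and 1986 lower in PagDET2-OE) and 1.15% were higher by at least 2-fold. The other 3 members were at or near the limit of detection in XY. Potri.009G142300 had 2, 3 and 0 counts in 84K and 0, 2 and 0 in PagDET2-OE, Potri.009G141800 had 3 counts in a single PagDET2-OE library, and Potri.009G142100 had none. In PagDET2-OE the XY libraries held 30.4% of all counts of Potri.004G182000. After TMM scaling its mean there resembled that in 84K PS (4.49 and 4.48 CPM), but by the deposited FPKM, which follow the library total and not the TMM factors, it was lower (3.04 and 4.75). That comparison of domains therefore depends on the scaling.

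Markers moved in the xylem too. Of all 21273 genes tested there, 2136 were called higher and 1986 lower. Secondary wall genes were higher in 13 of 29 cases, with list sums of 25039 to 26335 CPM in 84K and 28497 to 30551 CPM in PagDET2-OE. The 2 tested phloem models were lower by edgeR and 1 of them by DESeq2 (sums of all 16 models 1120 to 1160 and 1009 to 1048 CPM). Nearly all of the phloem sum in XY was SUC2, with 47734 counts over 6 libraries, against 38 of APL and 10 of PP2-A1. Neither of 2 tested epidermal models was called, and 3 of 4 models of the wax gene CER1 had 0 counts. The part of these markers in the level of Potri.004G182000 was not tested.

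Xylem and bark also differed for Potri.004G182000 within each genotype. In 84K it had 24 counts over the XY libraries and 6 over the BA libraries, a ratio of 6.40 after scaling (95% counting interval 2.55 to 19.1), and the fit of 18 libraries gave a log2 difference of 2.60 (SE 0.59, adjusted p = 0.000295, edgeR). In PagDET2-OE it had 102 and 3 counts, a ratio of 48.4 (16.1 to 239, adjusted p = 1.65e-10, edgeR). The fitted log2 difference of 5.42 in PagDET2-OE became 6.25 without replicate 3 of BA, and on log2(FPKM + 1) values the differences were 0.64 in 84K and 1.87 in PagDET2-OE, all of them called. Every XY library was above every BA library. Potri.004G182000 passed the count filter of this fit through PS, the domain that chose it, and through PagDET2-OE XY, where it is high. Its p-values between XY and BA are therefore a description, given beside the counting intervals. Genes higher in XY than in BA were common, at 32.4% of those tested in 84K and 33.8% in PagDET2-OE.

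The genotype effect on Potri.004G182000 was larger in XY than in BA by 2.82 on the log2 scale (SE 1.02), which missed the threshold (adjusted p = 0.0681, edgeR interaction test). The BA side of it rests on 6 and 3 counts, and the limit of the count filter holds here too. Over all genes 13.3% passed this test in either direction. The 2 effects of this gene that point in opposite directions, in PS and in XY, were not tested against each other because PS chose the gene.

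Potri.009G142300 went the other way between bark and xylem. In 84K it had 31 counts in BA and 5 in XY, a ratio of 3.87 (95% counting interval 1.49 to 12.8), with a log2 difference between XY and BA of -1.89 (SE 0.62, adjusted p = 0.00859, edgeR). In PagDET2-OE it had 18 and 2 counts, a ratio of 6.32 (1.51 to 56.2), with a log2 difference of -2.50 (SE 0.84, adjusted p = 0.00959, edgeR). The gene passed the count filter of this fit only through PS, the domain that chose it. Its counts in BA and XY were too few for a test between genotypes in either domain. These p-values are therefore given as a description, beside the counting intervals. Lower levels in XY than in BA were found for 38.8% of the genes tested in 84K and 41.7% in PagDET2-OE. The call was lost in 84K without replicate 3 of BA (log2 difference -1.54) or of XY (-1.21), and in PagDET2-OE without replicate 3 of BA (-2.09) or of XY (-1.88). Without replicate 2 of XY the differences were -2.61 in 84K and -5.48 in PagDET2-OE.

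Across all 18 libraries the 3 chromosome 9 members followed each other closely, with Pearson's r of 0.879 to 0.945 on log2 CPM, whereas Potri.004G182000 correlated with them at 0.281 to 0.531. The libraries share domain and genotype, and the low values in BA and XY rest on single counts, so these figures describe the domain pattern. Within the 6 PS libraries all pairs of members lay between 0.938 and 0.992, which follows from the choice of genes that separate the genotypes.

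The gene models whose pattern was most like the mean of the 4 members, by Pearson's r over 18 libraries and 25722 genes, were Potri.018G031100, a cell wall protein family member with a DUF642 domain (0.984), and Potri.014G171600, the subtilisin-like protease AIR3 (0.982). Next came Potri.004G217200, pheophorbide a oxygenase of chlorophyll breakdown (0.980), Potri.006G205500, the ovate family protein OFP13 (0.978), and Potri.005G073300, DHS1 of the shikimate pathway (0.978). Such likeness was common, since 1017 genes had r of at least 0.9. The copies Potri.009G142000 and Potri.T175300 had r of 0.932 and 0.929. Potri.018G031100 had a mean of 190 CPM in 84K PS and 139 CPM in PagDET2-OE PS, and at most 5.54 CPM in any group of BA or XY. Between genotypes in PS, edgeR called it (log2 fold change -0.45), Potri.014G171600 (-0.46) and Potri.006G205500 (-0.94) lower, beside 6.90% of all genes. The likeness was measured over libraries that include the PS drop of the members. These calls therefore reuse the values that picked the genes and are a description. Potri.004G217200 (-0.23, adjusted p = 0.114) and Potri.005G073300 (-0.11, adjusted p = 0.243) were not called by edgeR, so a high r does not mean a shared genotype effect.

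The neighbours of the genes, taken as models starting within 50000 bp, were compared in the same libraries. On chromosome 9, 6 of 17 models were tested in PS and none was called, with log2 fold changes of -0.33 to -0.17. In BA 1 of 4 was called by edgeR, NAC036 (Potri.009G141600), a transcription factor gene, at 1.31 (SE 0.37, adjusted p = 0.0375), which DESeq2 did not call, and in XY none of 3. On chromosome 4, none of 4 tested models was called in PS (-0.55 to 0.17) and none of 3 in BA. Over all genes, 8.08% were called higher and 6.90% lower in PS, and 6.19% and 5.34% in BA. In XY 19.4% were called in either direction. Among so few neighbours, the lack of calls cannot be told apart from these shares. At an unadjusted p under 0.05 there were 2 models on chromosome 9 and 1 on chromosome 4 in PS, 3 on chromosome 4 in BA and 0 on chromosome 9 in XY, and DESeq2 called 0 in each of these.

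In XY 2 of the 11 neighbour models of Potri.004G182000 were tested, and both were higher in PagDET2-OE, as that gene was. Of all 21273 genes tested there, 2136 were called higher. The putative lysine decarboxylase gene Potri.004G181800, of a family that in rice includes cytokinin-activating enzymes, measured 7.18, 6.37 and 7.55 CPM in 84K XY and 31.1, 29.8 and 30.3 CPM in PagDET2-OE XY. The groups were far apart (log2 fold change 2.08, SE 0.13, adjusted p = 4.71e-09, edgeR), and the effect was larger in XY than in BA by 1.62 (adjusted p = 0.000215). EXLA2 (Potri.004G181700), an expansin-like wall protein, measured 26.8, 31.7 and 28.9 CPM in 84K XY and 43.8, 38.3 and 41.0 CPM in PagDET2-OE XY, a log2 fold change of 0.47 (SE 0.10, adjusted p = 0.00313, edgeR).

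**Figure D4:**
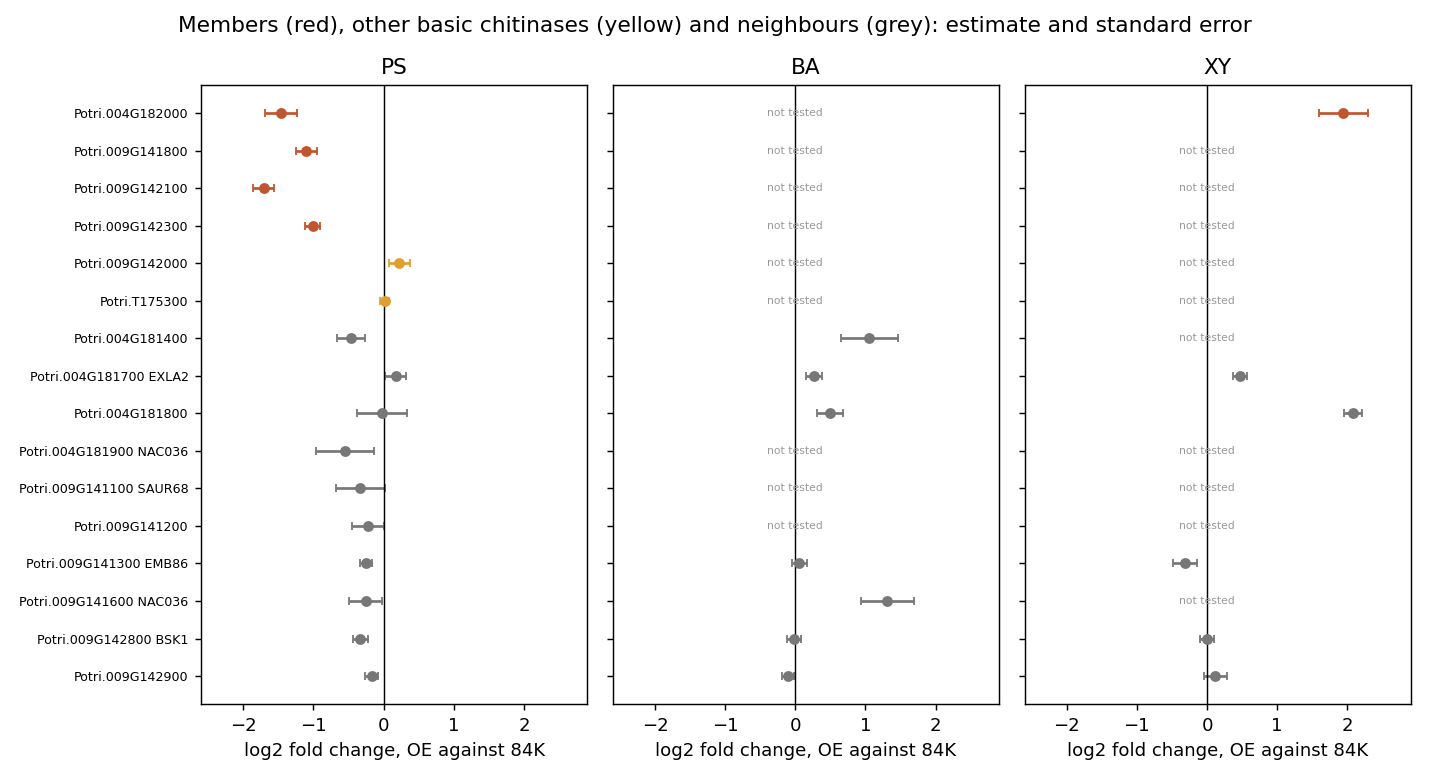
Log2 fold change of PagDET2-OE against 84K (x axis, linear, with standard error) in PS, BA and XY for the members (red), other basic chitinases (yellow) and tested neighbours (grey). The members lie between -1.71 and -1.01 in PS, and in XY Potri.004G182000 (1.94) and its neighbour Potri.004G181800 (2.08) lie to the right, with models of too few counts marked as not tested.

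No other GH19 chitinase was called lower in PS. Of 11 other GH19 models 8 were tested there, 3 were higher and none was lower, beside 8.08% and 6.90% of all genes. Among 8 models, the absence of lower calls cannot be told apart from that share. The median log2 fold change was 0.14 against 0.00 over all genes. The class IV chitinase EP3 (Potri.019G093900), whose carrot homolog acts in somatic embryogenesis, measured 37.4, 35.3 and 43.6 CPM in 84K PS and 63.1, 62.7 and 70.2 CPM in PagDET2-OE PS, which did not overlap (log2 fold change 0.75, SE 0.08, adjusted p = 1.6e-05, edgeR). A further EP3 copy, Potri.019G094000, rose from 8.58 ± 1.56 to 12.9 ± 0.247 CPM (SD, n = 3; 0.58, adjusted p = 0.00944, edgeR), a call that was lost in a fit of all 18 libraries (adjusted p = 0.0911).

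CTL2 (Potri.010G141600), a chitinase-like protein of secondary wall formation in Arabidopsis, was by far the most abundant of these in XY, with means of 8901 CPM in 84K and 11065 CPM in PagDET2-OE. Its log2 fold change was 0.29 in PS (adjusted p = 0.00366), -0.50 in BA (adjusted p = 4.27e-05) and 0.29 in XY (adjusted p = 0.000682, all edgeR). In 84K it was higher in XY than in BA by 4.98 on the log2 scale, and the secondary wall list moved in the same directions in BA (14 of 21 lower) and XY (13 of 29 higher). The part of that list in the values of CTL2 was not tested. Of 18 GH18 models, the other chitinase family, 5 were tested in PS, 1 in BA and 3 in XY, and edgeR called none (unadjusted p under 0.05 for 1, 1 and 0 of them). DESeq2 called 0 as well. Over all genes, 8.08% were higher and 6.90% lower in PS, and 6.19% and 5.34% in BA. In XY 19.4% were called in either direction. Among so few GH18 models, the lack of calls cannot be told apart from these shares.

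The list of 39 chitin perception and LysM models had 22 tested in PS. Of these 1 was higher and none was lower, beside 8.08% and 6.90% of all genes. In BA 2 of 22 were lower and none was higher, and in XY 3 of 19 were lower and 1 was higher, against 5.34% of all genes lower in BA and 1986 of 21273 lower in XY. LYM2 (Potri.009G143300), a membrane-anchored chitin-binding protein in Arabidopsis, measured 3.31 ± 1.12 CPM in 84K XY and 1.40 ± 0.186 CPM in PagDET2-OE XY (SD, n = 3). Its log2 fold change of -1.26 (adjusted p = 0.0192, edgeR) was lost with DESeq2 (adjusted p = 0.0630) and without replicate 1 of 84K XY (adjusted p = 0.122) or replicate 2 of PagDET2-OE XY (adjusted p = 0.0711). Potri.008G030200, a LysM protein gene, fell in BA from 9.03 ± 0.239 to 5.25 ± 1.10 CPM (SD, n = 3), a log2 fold change of -0.77 (adjusted p = 0.00874, edgeR). A further LysM gene, Potri.010G231000, fell in BA from 2.80 ± 0.183 to 1.37 ± 0.478 CPM (SD, n = 3, adjusted p = 0.0373) and had a log2 fold change of 0.36 in XY (adjusted p = 0.0182, both edgeR), and these calls were lost under 7 and 6 of 15 alternative settings. In 84K both LysM genes were higher in XY than in BA, by 4.47 and 5.10 on the log2 scale, and in BA they fell beside the secondary wall list, whose part in this was not tested.

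Among 72 models of other pathogenesis-related proteins, 38 were tested in PS, with 5 higher and 3 lower, beside 8.08% and 6.90% of all genes. In BA 5 of 30 were higher and 2 lower, beside 6.19% and 5.34% of all genes. In XY 3 of 14 were higher, beside 2136 of all 21273 genes tested. A thaumatin-like gene (Potri.001G237600), of the PR-5 family, rose in PS from 120 ± 15.2 to 217 ± 28.2 CPM (SD, n = 3; log2 fold change 0.85, adjusted p = 0.00360) and in BA by 0.50 (adjusted p = 0.00737, both edgeR). PR4 (Potri.013G041700), a chitin-binding protein, had 1 to 5 counts per library in 84K BA and 16 to 20 in PagDET2-OE BA, a log2 fold change of 2.79 (SE 0.47, adjusted p = 0.00177, edgeR). The value was 3.55 without replicate 2 of 84K BA and 1.53 on log2(FPKM + 1) values, and was called in both. Its change in PS was 0.35 (adjusted p = 0.00626), which was lost in a fit of all 18 libraries (adjusted p = 0.181). PRB1 (Potri.T131500), a basic PR-1 protein, rose in BA by 2.19 (adjusted p = 0.00735, edgeR), whereas its PS value of 0.31 (adjusted p = 0.0445) was lost under 12 of 15 alternative settings.

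The 42 models of ethylene and jasmonate defence regulators had 24 tested in PS, of which 9 were lower and none was higher, with a median of -0.21 against 0.00 over all genes, of which 6.90% were lower. DESeq2 called 6 in place of these 9. MYC2 copies, encoding a main transcription factor of jasmonate responses, differed from each other. Potri.001G083500 fell in PS from 6.25 ± 1.10 to 2.92 ± 0.355 CPM (SD, n = 3), a log2 fold change of -1.09 (SE 0.20, adjusted p = 0.00137, edgeR). Potri.003G092200 measured 40.7 ± 2.77 and 38.6 ± 4.75 CPM in PS, and it rose in BA by 0.56 (adjusted p = 0.000115) and in XY by 1.03 (adjusted p = 9.2e-08, both edgeR).

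ERF1 (Potri.010G072300), a transcription factor that acts where ethylene and jasmonate signals meet and that raises basic chitinase when overexpressed in Arabidopsis, had 0 counts in all 6 PS libraries. It had 10 to 15 counts per library in 84K BA and 41 to 56 in PagDET2-OE BA (log2 fold change 1.99, SE 0.25, adjusted p = 0.000199, edgeR). In XY it had 1 to 3 and 13 to 16 counts (2.66, SE 0.54, adjusted p = 0.00208, edgeR), and neither pair of groups overlapped. In BA 4 of 24 regulators were higher and 3 lower, beside 6.19% and 5.34% of all genes. In XY 3 of 17 were higher and 2 lower, beside 2136 and 1986 of all 21273 genes tested. DESeq2 gave fewer calls in some lists, with 4 in place of 8 pathogenesis-related genes in PS, 1 in place of 2 chitin perception genes in BA and 2 in place of 4 in XY.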

How the data were processed

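RNA-seq was measured in 18 libraries, 3 in each of 6 groups taken from the labels. Reads were placed by the authors on the P. trichocarpa genome (HISAT2 2.0.4) and fragments were summed per gene (StringTie 1.3.0). The authors deposited whole-number counts beside FPKM, which scale the counts by gene length and library total. The study's methods name TMM before FPKM, but the ratio of deposited counts to FPKM within a gene was constant after division by library total (median coefficient of variation 7.44e-05% over 9931 genes) and not with the TMM factors (21.5%). Because reads of a hybrid were placed on another species, counts of close copies may be divided unevenly.

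From the deposited counts, genes were filtered with filterByExpr (minimum count 10, minimum total 15), scaled by TMM and tested with the robust quasi-likelihood test of edgeR 4.0.16 (R 4.3.3), with p-values adjusted by Benjamini-Hochberg across every gene in a comparison and a threshold of 0.05. Genotypes were compared within each domain, and XY with BA in 1 fit of 18 libraries. Standard errors were derived from the test statistics. Differences of the genotype effect between XY and BA that could not be estimated, because groups had 0 counts, were left out. CPM were scaled by TMM over 18 libraries. Alternatives used RLE and upper quartile factors, no filter, DESeq2 1.42.0, limma 3.58.1 on log2(FPKM + 0.1) and log2(FPKM + 1), a replicate block, a fit of all 18 libraries and leaving out each replicate. Scripts were tested on simulated data.

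The members and the gene lists were chosen with earlier results of these data known. Lists were matched by description or Arabidopsis symbol, and formate dehydrogenase, protein phosphatase 2A and serine transhydroxymethyltransferase genes sharing a symbol were removed after the table was seen. Genes named were the members, the other basic chitinases, up to 3 called genes per list with the largest change and a mean of at least 1 CPM, tested neighbours within 50000 bp and the 5 most alike in pattern. No sequences are shown.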

Additional observations from a re-analysis of the deposited data

Results flagged for a closer look

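Potri.004G182000 had a log2 fold change of PagDET2-OE against 84K of 1.94 in XY and of -1.46 in PS, with all 3 libraries of each PagDET2-OE group on one side of their 84K group. This difference between the domains was not tested, because PS chose the gene.

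For 7 further named genes the genotype effect differed between XY and BA by the interaction test of edgeR, adjusted over 25726 genes. Of all genes, 13.3% passed this test in either direction. All but the neighbour Potri.004G181800 were named for a called genotype change in PS, BA or XY. For those the test partly reuses the values that named them, and it is given as a description. The difference, XY minus BA on the log2 scale, was 0.83 for CTL2 (Potri.010G141600, adjusted p = 1.95e-08), 1.40 for the LysM gene Potri.010G231000 (adjusted p = 0.000261), 1.02 for the LysM gene Potri.008G030200 (adjusted p = 0.000106), 1.62 for the putative lysine decarboxylase gene Potri.004G181800 (adjusted p = 0.000215) and 0.52 for the MYC2 copy Potri.003G092200 (adjusted p = 0.00210). It was -1.75 for LYM2 (Potri.009G143300, adjusted p = 0.0167) and -1.01 for the thaumatin-like gene Potri.001G237600 (adjusted p = 0.0301). Secondary wall genes, like CTL2 and both LysM genes, were lower in BA (14 of 21), 13 of 29 of them were higher in XY, and their part in these differences was not tested.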

How the results depend on the processing

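For Potri.004G182000 in XY, all alternatives but the fit without a filter share the limit of the count filter given above. The higher level of Potri.004G182000 in PagDET2-OE XY was called under all 15 alternatives (log2 fold change 1.13 to 2.07, adjusted p 0.000180 to 0.00831), and 1.71 to 2.07 with a replicate left out. Its XY minus BA difference, not called at 2.82, was called with limma on log2(FPKM + 0.1) at 2.14 (adjusted p = 0.0345) and on log2(FPKM + 1) at 1.22 (adjusted p = 0.000754). With a replicate left out it was 2.31 to 3.65 (adjusted p 0.0275 to 0.241) and was called without replicate 1 of 84K BA (3.28). In PS its value was -1.09 on log2(FPKM + 1). The XY against BA difference of Potri.009G142300 was -2.61 to -1.21 in 84K and -5.48 to -1.88 in PagDET2-OE with a replicate left out, and was lost without replicate 3 of either domain. All 4 members could be tested in BA without the filter or in a fit of 18 libraries, and edgeR called 0 (unadjusted p under 0.05 for 0 and 1 of them). In PS Potri.010G231000 was -0.064 to 0.15 with a replicate left out, below 0 without replicate 3 of 84K. The causes were not tested.

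Genes called in PS numbered 3590, against 2251 with DESeq2 and 2106 to 3606 with a replicate left out (2281 without PagDET2-OE replicate 1, 2106 and 2122 without 84K replicates 1 and 2). In BA they numbered 2728, against 1435 to 2817 (1555 and 1435 without 84K replicates 1 and 2). With the replicate number as a block, 5491 genes were called in PS and 4348 in BA, and Potri.004G182000 in XY had 1.92 (adjusted p = 0.000558). Deviations of same-numbered libraries correlated between genotypes at 0.0148 to 0.116 in PS, 0.0432 to 0.0615 in BA and 0.0150 to 0.0221 in XY, and 4, 6 and 6 of 6 libraries correlated best with their own number. Between BA and XY of the same genotype, 2 of 6 libraries did so in 84K (-0.000927 to 0.0363) and 3 of 6 in PagDET2-OE (0.00959 to 0.0572). The limit set for a pairing, every same-numbered pair over 0.1, was not met, and the main fits used no block. What the number stands for is not in the labels, and a batch or tree shared by same-numbered libraries was not tested. Depth limits the members in BA and XY, where most had under 10 counts per library.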
